A study of Mus musculus with 2 samples.

Results

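The EGF receptor family and its ligands are described here in 2 single-cell RNA libraries of mouse pancreatic tumours. The members are 9 genes, named by symbol, of the 32285 genes in the deposited tables. They comprise 3 receptors (Egfr, Erbb2 and Erbb3) and 6 ligands (Ereg, Areg, Hbegf, Tgfa, Btc and Epgn). The tumours were orthotopic allografts of KPC cells, a line derived from a genetically engineered mouse model of pancreatic cancer with Cre recombinase under the Pdx1 promoter. The cells had received by lentivirus either a control hairpin (KPC-shV) or one directed at Zeb1 (KPC-shZEB1), and 1 tumour from 1 mouse was sequenced for each. The study's text describes gemcitabine treatment of the mice that were sequenced, and the labels do not mention it. The labels give neither the strain nor the age of the hosts. Mouse, tumour, dissociation, library and hairpin are the same split, so they cannot be told apart, and no difference between the libraries has a replicate check.

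In this family, secreted or shed ligands of the EGF type bind receptor tyrosine kinases, which then pair and signal through Ras and the MAP kinases. EGFR binds all of the ligands measured here, ERBB3 has a weak kinase and signals through its partners, and ERBB2 has no known ligand and serves as the preferred partner. In pancreatic tumours a ligand can come from the carcinoma cell that carries the receptor (autocrine) or from fibroblasts and immune cells nearby (paracrine), and the comparison of cell classes addresses that distinction.

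The libraries held 12594 and 13271 cell barcodes with 130941086 and 143461224 unique molecular identifiers (UMIs), of which 11394 and 12113 cells were kept. Paired values in the text always give the library labelled KPC-shV first and the library labelled KPC-shZEB1 second. The libraries shared 46 barcodes, 36 of them among kept cells. Zeb1 itself, the hairpin target, had levels of 131 and 175 CPM (UMIs per 1000000 UMIs of the class) among tumour-like cells, which is a ratio of 1.33 (1.27–1.40), so the library labelled KPC-shZEB1 did not have the lower level of its target. Classes with little Zeb1 differed in the same direction, with 46.2 and 69.1 CPM in monocyte-macrophage-like cells, and the part of free RNA was not tested. Directions therefore compare 2 libraries by their labels. Each ratio divides the second library's level by the first's, and ranges in parentheses are exact 95% intervals that cover counting error only.

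Cells were clustered without the 9 members and named from markers. Tumour-like cells numbered 1028 and 1266, fibroblast-like cells 358 and 382, monocyte-macrophage-like cells 1555 and 2394, dendritic-like cells 163 and 463, and granulocyte-like cells 6863 and 4314. The tumour-like class held 3 clusters, which are called by their leading genes. The Fermt1-Epcam cluster, with 694 and 720 cells, carried Epcam, Cdh1 and the keratins. The Zfp804b-Ralyl cluster lay almost wholly in 1 library, with 9 and 226 cells, and may be that library and not a cell type. It took the tumour name on 4 markers. Its Krt8 was at 537 and 939 CPM, but its Epcam was at only 37.6 and 30.3 CPM, against 542 and 596 CPM in the Fermt1-Epcam cluster. The Ctsk-St18 cluster, with 325 and 320 cells, had a median of only 2200.0 and 2272 UMIs per cell. A further cluster of 477 and 173 cells, led by Prg4 and Grem1, had Krt8 and Krt18 but no other tumour marker, and a little Dcn and Lum. Its Epcam was at 21.8 and 27.2 CPM. The marker rule gave this cluster the fibroblast name, with 4 fibroblast markers detected. It was instead kept as a class of its own, and it is counted below among the tumour-line clusters. Its Xist level, 36.5 and 48.6 CPM, was near that of the Fermt1-Epcam cluster (35.9 and 51.9 CPM) and far below the 550.2 and 528 CPM of fibroblast-like cells. B-like cells, taken as a class that should lack these genes, served as the gauge of free RNA, with 288 and 1228 cells and medians of 3732 and 3416 UMIs.

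Egfr (ENSMUSG00000020122; chromosome 11, 16752203 to 16918158, plus strand, GRCm38), the receptor shared by the ligands, was highest per UMI in fibroblast-like cells. It reached 359 CPM (347–370.1) and 453 CPM (441–466) there, and 96.1% and 96.6% of fibroblast-like cells held a UMI of it. Prg4-Grem1 cells followed with 183 and 217 CPM and tumour-like cells with 99.0 (94.8–103) and 129 CPM (125–133). The order of these classes was the same in both libraries and none of their counting intervals overlapped. Within a library the tumour-like level was 0.276 (0.261–0.291) and 0.285 (0.273–0.297) of the fibroblast-like level. In B-like cells Egfr was at 7.79 and 15.4 CPM, and the 10.6 and 18 CPM of monocyte-macrophage-like, 11.5 and 19.5 CPM of granulocyte-like and 7.36 and 16.7 CPM of T-like cells lay close to that background. A UMI of Egfr was found in 48.2% and 61.5% of tumour-like cells, whose medians were 18583 and 23086 UMIs, against 3.12% and 5.54% of B-like cells. After each cell was thinned to 1000 UMIs, the share was 7.20% and 9.95% in tumour-like cells and 29.3% and 35.6% in fibroblast-like cells.

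Between the libraries, Egfr was higher in the library labelled KPC-shZEB1 in each of these 3 classes, by less than 1.5-fold. The ratio was 1.30 (1.24–1.38) in tumour-like, 1.26 (1.21–1.32) in fibroblast-like and 1.19 (1.11–1.28) in Prg4-Grem1 cells. In the last class 5 cells held 7.64% and 20.8% of the Egfr UMIs, and without them the ratio was 1.02. In the Fermt1-Epcam cluster alone it was 1.18 (1.11–1.25), from 101 to 119 CPM. The Zfp804b-Ralyl cluster went the other way with 263 and 177 CPM, but its first value rests on 9 cells. A pair of myeloid clusters stood apart. Granulocytes led by Eldr and Cc2d2b, with 46 and 25 cells, had Egfr at 59.6 CPM (27.3–113) and 196 CPM (104–335), from 9 and 13 UMIs. In macrophages led by F13a1 and Bmp2 it was at 10.7 and 32.6 CPM, a ratio of 3.06 (2.31–4.12). The second macrophage value lies above the B-like 15.4 CPM, and 5 of the 755 cells held 27.3% of those UMIs. For the whole monocyte-macrophage-like class the ratio of 1.69 became 0.904 once the B-like level of each library was subtracted.

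**Figure D1:**
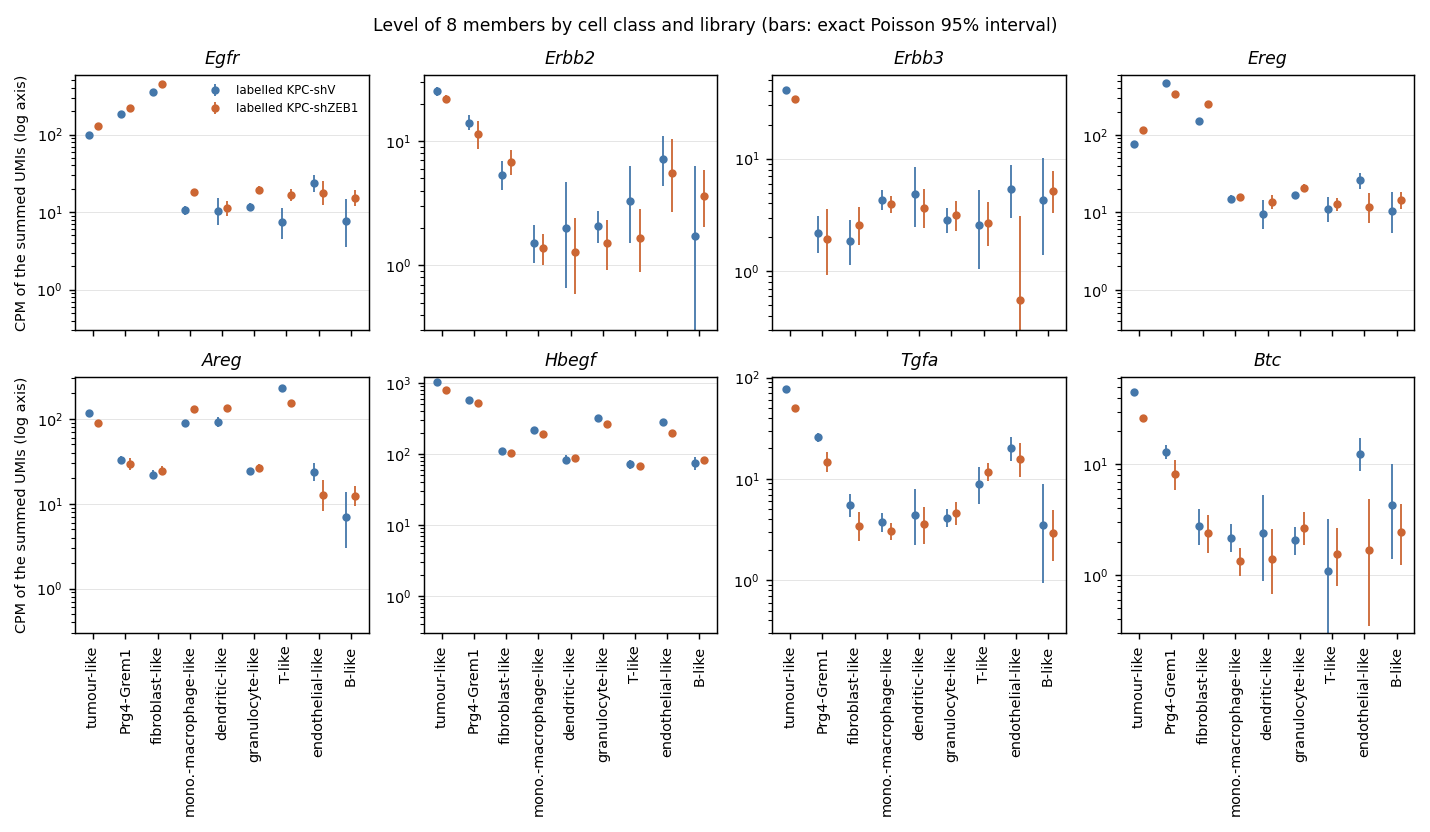
Level of 8 members (CPM of the UMIs summed over a class, log axis) in 9 cell classes of each library, with exact Poisson 95% intervals. Egfr is highest in fibroblast-like cells (359 and 453 CPM), Ereg in Prg4-Grem1 cells (469 and 342 CPM), and Hbegf, Tgfa, Btc, Erbb2 and Erbb3 in tumour-like cells, and Areg in T-like cells (229 and 155 CPM) lies above its tumour-like level.

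Erbb2 (ENSMUSG00000062312; chromosome 11, 98412470 to 98437716, plus strand) and Erbb3 (ENSMUSG00000018166; chromosome 10, 128567523 to 128589652, minus strand) were found mainly in tumour-like cells. Erbb2 had levels of 25.2 and 21.9 CPM in tumour-like cells, against 5.35 and 6.75 CPM among fibroblast-like cells, so that it was 4.71-fold (3.59–6.30) and 3.24-fold (2.54–4.19) higher in the former. Erbb3, the partner that binds neuregulins, had 40.7 and 33.5 CPM in tumour-like cells, against 1.84 and 2.59 CPM among fibroblast-like cells. Tumour-like cells held 76.1% and 73.7% of all Erbb3 UMIs. The tumour-line clusters differed most in this receptor, since Prg4-Grem1 cells had only 2.17 and 1.94 CPM, 0.0502 (0.0337–0.0722) and 0.0444 (0.0212–0.0820) of the Fermt1-Epcam level. That is under the 4.33 and 5.14 CPM of B-like cells, whereas Egfr in the same cells was 1.81-fold (1.71–1.92) and 1.83-fold (1.70–1.96) above the Fermt1-Epcam cluster. Between the libraries the ratios in tumour-like cells were 0.867 (0.772–0.975) for Erbb2 and 0.823 (0.75–0.903) for Erbb3, and at a Leiden resolution of 0.5 they were 1.11 and 1.35. In the Fermt1-Epcam cluster they were 1.03 (0.912–1.16) and 1.01 (0.923–1.12), within counting error.

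The ligand genes Areg, Ereg, Btc and Epgn lie together on chromosome 5, within the 91027464 to 91402994 interval. Ereg (ENSMUSG00000029377; 91074622 to 91093646) and Areg (ENSMUSG00000029378; 91139599 to 91148432) are neighbours on the plus strand, and Btc (ENSMUSG00000082361; 91357261 to 91402994) is on the minus strand. Tgfa (ENSMUSG00000029999) is a plus-strand gene of chromosome 6 (86195223 to 86275719). Because the hairpin target is a repressor that binds E-boxes of the form CAGGTG, the 250 bases before each start were searched for these letters on both strands. RefSeq promoters of GRCm38.p6 were at hand for 6 of the 9 members, and not for Ereg, Erbb3 or Hbegf. The motif was in 4 of the 6 (Areg, Tgfa, Btc and Epgn), and 17.2% of all 32851 promoters did. Areg, Tgfa and Btc are printed as the members that held the motif and were lower in tumour-like cells of the second library, a choice made after their values were seen. Erbb2 was lower there too (0.867) and did not hold the motif. Zeb1 itself was not lower there, with a ratio of 1.33, and a link between the motif and these levels was not tested. Capitals mark CAGGTG and, in Areg at base -61 from the start, the cyclic AMP response element TGACGTCA, which 1.55% of promoters hold. The first base of CAGGTG is at -20 in Areg (chr5:91139349-91139598, plus strand), at -197 in Tgfa (chr6:86194972-86195221, plus strand) and at -110 in Btc (chr5:91402995-91403244, minus strand). A match says only that the letters occur, and binding was not measured here.
Areg: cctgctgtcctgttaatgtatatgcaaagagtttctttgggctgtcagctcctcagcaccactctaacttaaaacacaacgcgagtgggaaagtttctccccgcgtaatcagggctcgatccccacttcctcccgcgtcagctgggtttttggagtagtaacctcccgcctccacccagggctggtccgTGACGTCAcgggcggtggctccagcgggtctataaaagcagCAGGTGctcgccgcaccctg
Tgfa: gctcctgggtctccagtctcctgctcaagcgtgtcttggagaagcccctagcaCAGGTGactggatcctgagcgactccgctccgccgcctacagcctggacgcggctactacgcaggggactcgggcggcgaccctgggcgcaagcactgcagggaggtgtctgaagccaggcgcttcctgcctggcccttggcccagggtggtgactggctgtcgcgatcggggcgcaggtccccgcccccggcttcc
Btc: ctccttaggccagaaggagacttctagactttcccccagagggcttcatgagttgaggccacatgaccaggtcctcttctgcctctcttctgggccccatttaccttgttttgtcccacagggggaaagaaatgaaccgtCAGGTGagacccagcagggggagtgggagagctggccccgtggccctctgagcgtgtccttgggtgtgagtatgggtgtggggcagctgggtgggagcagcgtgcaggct

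Tgfa and Btc were the ligands most closely tied to tumour-like cells. Tgfa, the classic autocrine ligand of carcinoma cells, was at 76.9 CPM (73.2–80.7) and 50.1 CPM (47.5–52.7) in tumour-like cells, against 5.53 and 3.42 CPM in fibroblast-like and 3.74 and 3.03 CPM in monocyte-macrophage-like cells. The fibroblast-like and monocyte-macrophage-like levels all lie within the intervals of the B-like background, 3.46 CPM (0.944–8.87) and 2.91 CPM (1.55–4.97). Tumour-like cells held 69.5% and 75.5% of all Tgfa UMIs. Btc, betacellulin, was at 44.6 CPM (41.7–47.5) and 26.3 CPM (24.5–28.2) in tumour-like cells, and at 2.77 and 2.40 CPM in fibroblast-like cells. Its tumour-like share of UMIs was 71.8% and 79.1%. Endothelial-like cells were a host class above that background for Tgfa, with 20 CPM (15.1–26.0) and 15.6 CPM (10.4–22.6). A UMI of it was found in 23.8% and 26.2% of these cells. Their Btc was at 12.5 and 1.67 CPM, against 4.33 and 2.46 CPM in B-like cells. Only the first of these Btc values was above the B-like level, with overlapping intervals, and 5 cells held most of its UMIs. Among lymphocytes, Tgfa reached 33.1 and 58.0 CPM in T and NK sub-clusters that took no name, 1 of which has it among its leading genes. These values rest on 14 and 63 UMIs, of which 5 cells held 64.3% and 36.5%.

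Both ligands were lower in the library labelled KPC-shZEB1, by a ratio of 0.651 (0.607–0.70) for Tgfa and 0.590 (0.536–0.650) for Btc in tumour-like cells. They were the 2 of 8 members with at least 100 UMIs that were at least 1.5-fold lower there, where 2.93% of all 12990 genes were. The median log2 ratio of the 8 members was -0.32, against 0.05 over all genes. Within the Fermt1-Epcam cluster the difference was smaller, 80.9 and 64.5 CPM for Tgfa (0.797, 0.740–0.858) and 46.6 and 32.0 CPM for Btc (0.687, 0.620–0.760). In Prg4-Grem1 cells Tgfa was at 25.7 and 14.8 CPM (0.576, 0.443–0.740) and Btc at 12.9 and 8.17 CPM (0.631, 0.440–0.888), so both were lower in each of these 2 large tumour-line clusters. Of the 7 members tested in Prg4-Grem1 cells these 2 were at least 1.5-fold lower, where 3.36% of all genes were, and 0 were higher, where 4.91% were. With no upper limit of UMIs the ratio of Tgfa in Prg4-Grem1 cells was 0.737, short of 1.5-fold. Without the Zfp804b-Ralyl cluster neither reached 1.5-fold over all tumour-like cells.

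Hbegf (ENSMUSG00000024486; chromosome 18, 36504927 to 36515805, minus strand), the heparin-binding ligand that is also made by macrophages, had 21663 and 23419 UMIs in tumour-like cells. Its level was 1032 CPM (1019–1046) and 803 CPM (792–813) there. Prg4-Grem1 cells had 574 and 528 CPM, granulocyte-like cells 326 and 261 CPM, endothelial-like cells 286 and 196 CPM and monocyte-macrophage-like cells 217 and 191 CPM, all above the 74.5 and 81.2 CPM of B-like cells. Fibroblast-like cells, with 111 and 104 CPM, were closer to that level, and dendritic-like cells, with 83.5 and 88.3 CPM, lay at it. The tumour-like level was 4.76-fold (4.62–4.91) and 4.2-fold (4.09–4.31) the monocyte-macrophage-like one and 3.17-fold (3.09–3.25) and 3.08-fold (2.97–3.19) the granulocyte-like one. A UMI of Hbegf was found in 75.6% and 81.4% of tumour-like and 47.9% and 41.3% of granulocyte-like cells (median 3148 and 2909.5 UMIs), against 24.7% and 25.2% of B-like cells. Thinned to 1000 UMIs, the granulocyte-like share was 23.7% and 19.8%, still above the B-like 5.56% and 7.65%.

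The ratio of Hbegf between the libraries was 0.778 (0.763–0.792) in tumour-like cells and 0.902 (0.884–0.919) in the Fermt1-Epcam cluster, lower in both and short of 1.5-fold. In granulocyte-like cells it was 0.801 (0.769–0.834). All genes of that class were shifted by a median log2 ratio of 0.26, a fold of 1.19, and relative to this shift the ratio of Hbegf was 0.671. The granulocyte clusters differed among themselves. Hbegf was at 352 and 227 CPM (0.645, 0.590–0.705) in the cluster led by G0s2 and Cxcr2, at 375 and 351 CPM (0.935, 0.850–1.03) in the one led by Dach1 and Cxcl3, and at 344 and 400.4 CPM (1.16, 1.02–1.32) in the one led by Ero1l and Sh2d3c. Of the 6 members tested in granulocyte-like cells 0 were at least 1.5-fold lower, where 2.45% of all genes were. Egfr was 1.5-fold higher there by its raw ratio of 1.70, among 19.7% of all genes, but its ratio relative to the shift was 1.42 and its level was near that of B-like cells.

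Ereg, epiregulin, was highest in Prg4-Grem1 and fibroblast-like cells. It was at 469 CPM (458–481) and 342 CPM (327–359) in Prg4-Grem1 cells, 149.8 (143–157) and 251 CPM (242–260.5) in fibroblast-like cells, and 76.9 (73.2–80.7) and 115 CPM (111–119) in tumour-like cells. The order of these 3 classes was the same in both libraries with no overlap of their intervals. The share of cells with a UMI was 69.2% and 73.4% in Prg4-Grem1, 50.8% and 51.0% in fibroblast-like and 33.7% and 39.8% in tumour-like cells, against 4.17% and 5.13% in B-like cells. Myeloid classes were near the B-like 10.4 and 14.3 CPM, with 14.9 and 15.8 CPM in monocyte-macrophage-like and 16.6 and 20.9 CPM in granulocyte-like cells. Prg4-Grem1 cells alone held 61.3% and 19.5% of all Ereg UMIs, and that cluster made up 31.7% and 12.0% of the tumour-line cells. Over all kept cells Ereg was at 105 and 75.7 CPM.

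The difference of Ereg between the libraries changed direction with the cells that were summed. It was 1.5 (1.41–1.59) over all tumour-like cells, which made Ereg the 1 member of 8 that was at least 1.5-fold higher there, where 9.56% of all genes were. In the Fermt1-Epcam cluster it was 0.673 (0.622–0.728), with 78.6 and 52.9 CPM, in Prg4-Grem1 cells 0.730 (0.692–0.770), and in the Ctsk-St18 cluster 0.995 (0.550–1.82). The Zfp804b-Ralyl cluster, which contributed 9 and 226 cells, was at 195 and 313 CPM (1.61, 1.24–2.13), and in the library labelled KPC-shZEB1 that level was 5.92-fold (5.51–6.37) the Fermt1-Epcam one. Without this cluster the ratio of all tumour-like cells was 0.675, and with Prg4-Grem1 cells counted as tumour-like it was 0.642. In fibroblast-like cells the ratio was 1.67 (1.57–1.78), and 5 cells held 18.5% and 19.1% of the UMIs. Fibroblast-like cells were 1 cluster, and of the 5 members tested there Ereg alone was at least 1.5-fold higher, where 4.55% of all genes were, and 0 were lower, where 3.71% were. With Prg4-Grem1 cells counted as fibroblast-like the ratio of Ereg was 0.853.

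**Figure D2:**
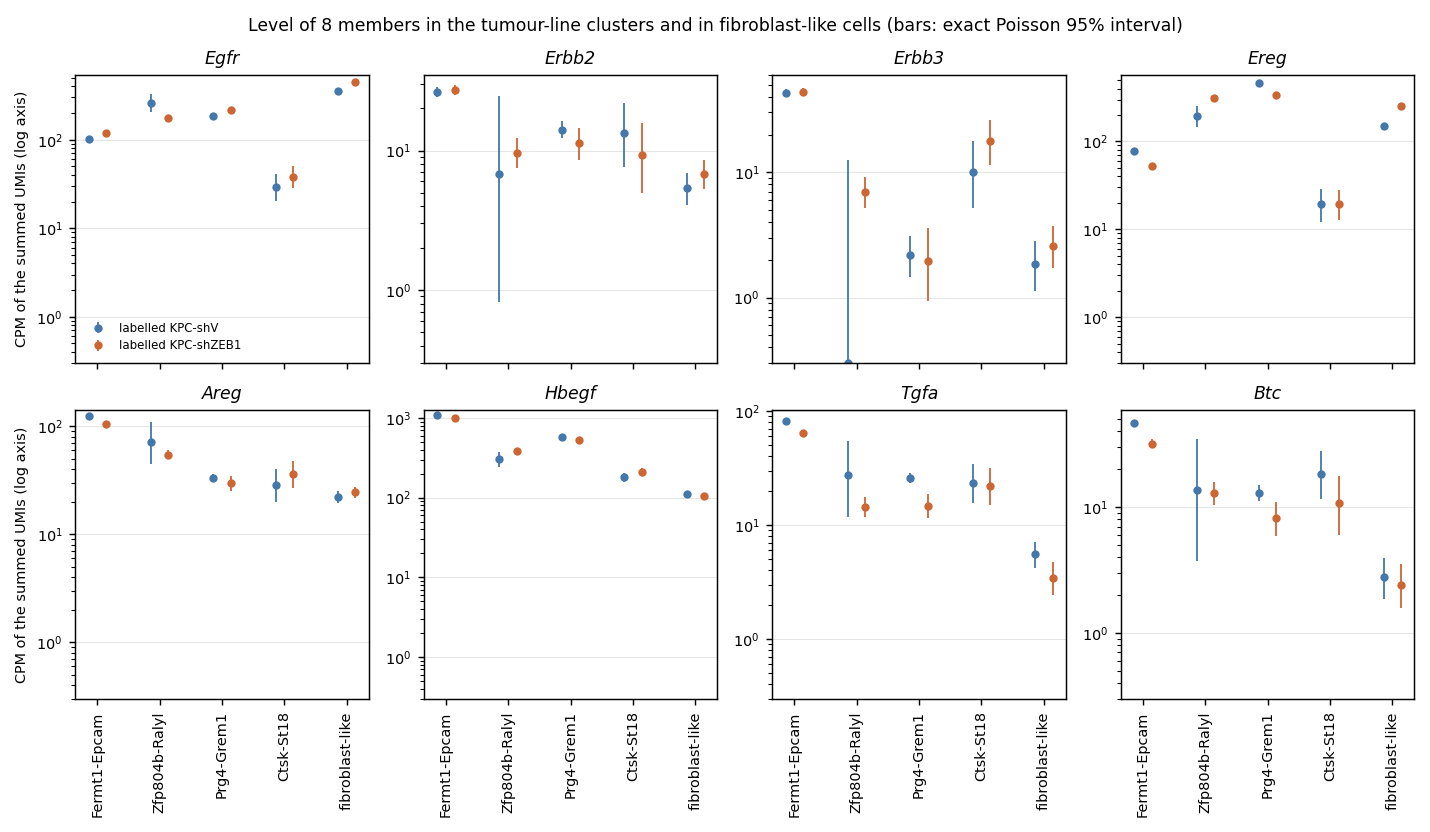
Level of 8 members (CPM, log axis) in the 3 tumour-like clusters, in Prg4-Grem1 cells and in fibroblast-like cells of each library, with exact Poisson 95% intervals and a point on the lower edge where there were 0 UMIs. Prg4-Grem1 and Zfp804b-Ralyl cells have more Egfr and Ereg and less Erbb2, Erbb3, Areg, Hbegf, Tgfa and Btc than Fermt1-Epcam cells, and the first Zfp804b-Ralyl point rests on 9 cells.

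The 4 tumour-line clusters differed in the members they carried. Against the Fermt1-Epcam cluster of the same library, Prg4-Grem1 cells had 5.97-fold (5.64–6.31) and 6.47-fold (6.0–6.99) the Ereg. They had less of the other ligands, 0.270 and 0.283 of the Areg, 0.524 and 0.535 of the Hbegf, 0.317 and 0.229 of the Tgfa and 0.278 and 0.255 of the Btc. The same contrasts had the same direction in both libraries, although only 1 mouse stands behind each. The Zfp804b-Ralyl cells of the library labelled KPC-shZEB1 resembled Prg4-Grem1 cells in these genes, with 1.49-fold the Egfr, 0.159 of the Erbb3, 0.521 of the Areg, 0.393 of the Hbegf and 0.222 of the Tgfa. In Ctsk-St18 cells all 8 members were lower per UMI than in Fermt1-Epcam cells, between 0.164 for Hbegf and 0.512 for Erbb2 in the library labelled KPC-shV. Those cells had few UMIs and 184 and 178 CPM of Xist, more than the other tumour-line clusters, and the part of free RNA in their values was not tested.

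Areg, amphiregulin, was the ligand with the most sources. In tumour-like cells it was at 117 CPM (112–122) and 88.8 CPM (85.4–92.3), and in monocyte-macrophage-like cells at 89.0 (85.1–93.0) and 131 CPM (127–134). The tumour-like level was 1.31-fold (1.24–1.39) the monocyte-macrophage-like one in the first library and 0.680-fold (0.648–0.714) in the second, so the order of these classes differed between the libraries. Dendritic-like cells were at 91.5 and 136 CPM, granulocyte-like cells at 24.4 and 26.6 CPM and fibroblast-like cells at 22.1 and 24.5 CPM, with 6.93 and 12.5 CPM in B-like cells. A UMI of Areg was found in 21.3% and 30.0% of monocyte-macrophage-like cells (median 13153 and 14183 UMIs) against 2.78% and 4.32% of B-like cells. Thinned to 1000 UMIs, the shares were 4.24% and 7.56% against 0.347% and 1.71%.

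Areg was higher in the library labelled KPC-shZEB1 in all 3 monocyte-macrophage-like clusters. It was at 132 and 212 CPM (1.61, 1.48–1.75) in monocytes led by Chil3 and Ccr2, at 87.1 and 128 CPM (1.47, 1.36–1.59) in macrophages led by Mmp12 and H2-M2, and at 39.2 and 61.7 CPM (1.57, 1.34–1.85) in macrophages led by F13a1 and Bmp2. The class ratio was 1.47 (1.39–1.55), just short of 1.5-fold, and ranged from 1.44 to 1.64 over the alternatives. Of the 6 members tested in this class Egfr, which lay near background, was 1.5-fold higher, where 5.97% of all genes were, and 0 were lower, where 1.17% were. In tumour-like cells the ratio of Areg was 0.761 (0.719–0.804), and in the Fermt1-Epcam cluster 0.850 (0.802–0.901). Dendritic-like cells gave 1.49, most of it in the cluster led by Ccl17 and Htr7 (109.6 and 168 CPM, 1.53), but 5 cells of that cluster held 54.0% of the UMIs in the library labelled KPC-shV, and the class ratio was 0.487 when no doublets were removed.

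The highest levels of Areg per UMI were in ILC2-like and Treg-like cells, and not in lymphoid cells as a whole. NK-like cells, for example, were at 55.7 (34.5–85.2) and 84.1 CPM (67.5–103). The first value was below the tumour-like level, and the second overlapped it in counting error. Of these NK-like UMIs 5 cells held 81.0% and 79.8%. ILC2-like cells, innate lymphocytes known for amphiregulin, were at 2121 CPM (1752–2544) and 2459 CPM (2125–2830.2), from 9 and 18 cells. Treg-like cells, in which amphiregulin is known as a tissue repair factor, were at 844 (739–959) and 727 CPM, a ratio of 0.861 (0.734–1.01). CD8 T-like cells were at 252 and 148 CPM, a ratio of 0.588 (0.513–0.676), but 5 cells held 67.5% and 44.5% of those UMIs, and without them the levels were 82.0 and 82.4 CPM, a ratio of 1.0 (0.804–1.26). Without their own 5 cells Treg-like cells were at 539 and 510.2 CPM, and ILC2-like cells at 219 and 697 CPM. All cells counted, gamma-delta T-like cells were at 111 and 113 CPM and CD4 T-like cells at 67.7 and 63.4 CPM, with 5 cells holding most of the UMIs of the first in both libraries. The ratio over all T-like cells was 0.675, and 0.825 without the 5 cells of most Areg UMIs in each library. T-like cells, 404 and 1275 in number and 3.55% and 10.5% of kept cells, held 9.19% and 11.2% of all Areg UMIs.

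**Figure D3:**
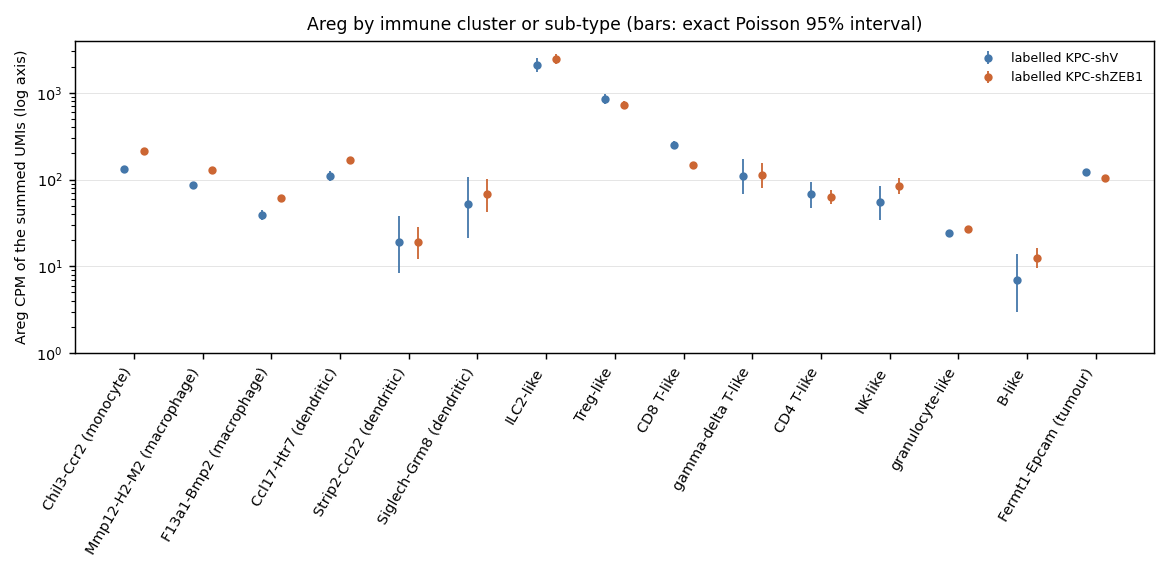
Level of Areg (CPM, log axis) in immune clusters and sub-types and in the Fermt1-Epcam tumour cluster of each library, with exact Poisson 95% intervals. ILC2-like (2121 and 2459 CPM) and Treg-like cells (844 and 727 CPM) are highest, the 3 monocyte-macrophage-like clusters are higher in the library labelled KPC-shZEB1, and B-like cells (6.93 and 12.5 CPM) are lowest.

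Epgn, epigen (ENSMUSG00000035020; chromosome 5, 91027464 to 91035215, plus strand), was barely detected, with 45 and 16 UMIs in all kept cells and 6 and 4 of them in tumour-like cells. It was under the minimum of 100 UMIs.

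The source of a ligand depends on both its level and the number and depth of the cells, and the share of UMIs held by each class combines them. Among tumour-like, granulocyte-like, monocyte-macrophage-like, dendritic-like and fibroblast-like cells, tumour-like cells held the most UMIs of 4 of the 5 ligands with at least 100 UMIs in each library, where 50.8% and 51.9% of all genes had most of theirs. They had the highest CPM for 4 and 3 of these 5, where 40.0% and 42.5% of all genes did. Only 5 ligands stand behind these counts. Hbegf, Tgfa and Btc were tumour-like by both measures, with 48.5% and 58.1% of the UMIs of Hbegf. For Areg, tumour-like cells held 36.1% and 24.2% of UMIs and monocyte-macrophage-like cells 29.4% and 44.6%, so the largest source differed between the libraries. Monocyte-macrophage-like cells were 13.6% and 19.8% of kept cells. Granulocyte-like cells were 60.2% and 35.6% of kept cells, and they held 16.7% and 8.65% of Hbegf UMIs. For Ereg, tumour-like cells held 15.2% and 37.3% and fibroblast-like cells 15.3% and 30.1%, beside the share of Prg4-Grem1 cells given above. Fibroblast-like cells held the largest share of the receptor Egfr, 42.5% and 44.1%, from 3.14% and 3.15% of cells.

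**Figure D4:**
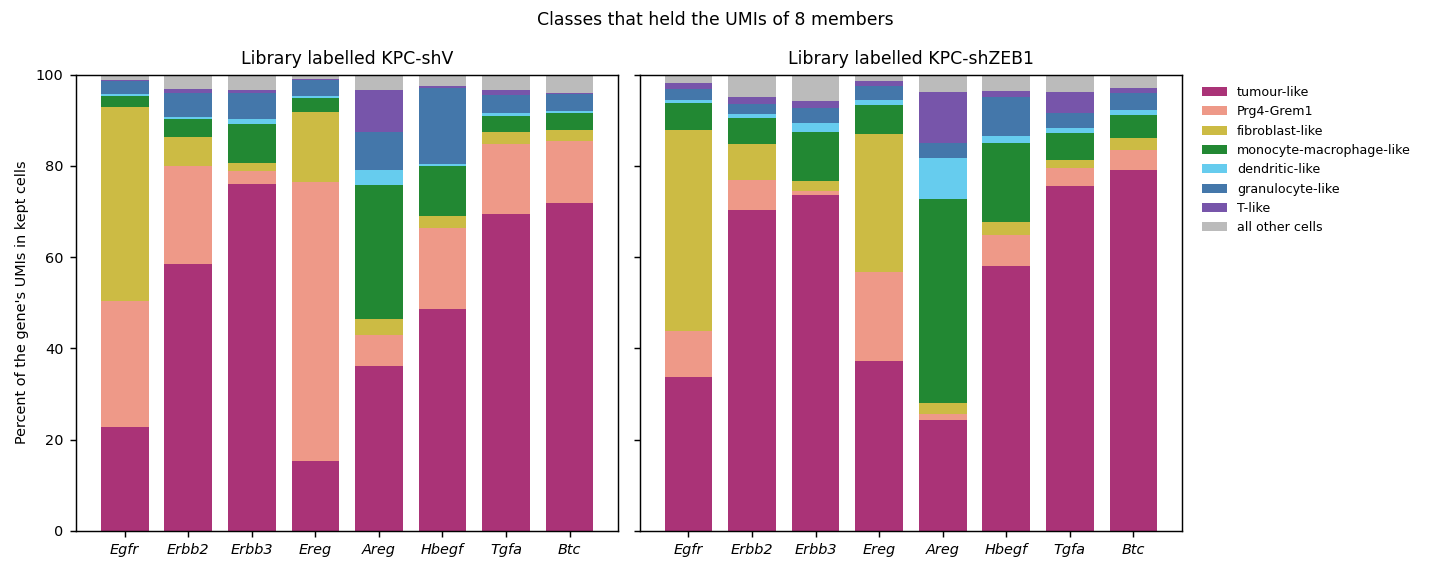
Percent of the UMIs of each member in kept cells that each class held (stacked bars to 100), for each library. Tgfa, Btc and Erbb3 are mostly tumour-like in both, Ereg is mostly Prg4-Grem1 in the library labelled KPC-shV (61.3%) and spread over 3 classes in the other, and Areg has its largest part in monocyte-macrophage-like cells in the library labelled KPC-shZEB1 (44.6%).

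Detection of Egfr beside a ligand in the same droplet was described at a fixed depth of 10000 UMIs. At this depth 98.7% and 99.2% of Fermt1-Epcam cells held at least 1 ligand UMI, Hbegf being in 95.3% and 94.5%. The share with both Egfr and a ligand, 43.9% (39.8–47.9) and 49.7% (45.8–53.6), was therefore close to the share with Egfr alone, 44.7% and 49.8%, and adds little to it. Cells with fewer UMIs were left out, 92 and 64 of the Fermt1-Epcam cells. Only 2 and 5 B-like cells reached this depth, so the part of free RNA in these shares was not tested.

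**Figure D5:**
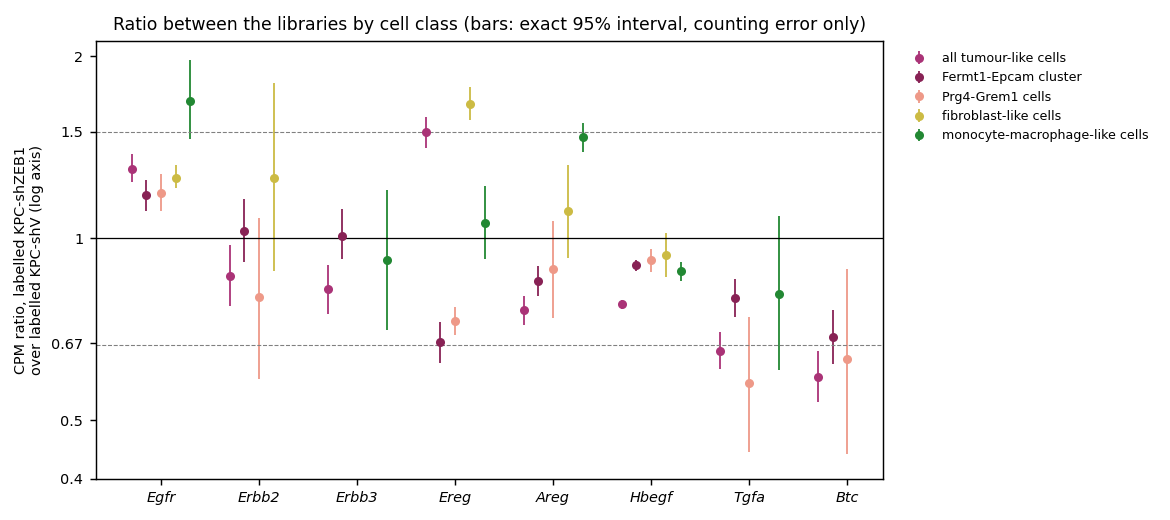
Ratio of CPM (KPC-shZEB1 over KPC-shV by label, log axis) of 8 members in 5 groups of cells, with exact 95% intervals and dashed lines at 1.5-fold, shown where there were at least 100 UMIs. Ereg is 1.5 over all tumour-like but 0.673 in Fermt1-Epcam cells, Areg is 1.47 in monocyte-macrophage-like but 0.761 in tumour-like cells, and Tgfa and Btc are below 1 in every tumour-line group.

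A list of 43 other genes of the pathway was examined for the same contrast. In tumour-like cells 40 had at least 100 UMIs, of which 2 were at least 1.5-fold higher in the second library, where 9.56% of all genes were, and 1 was lower, where 2.93% were. The median log2 ratio of the 40 was -0.08, against 0.05 for all genes. Among the ligands and receptors that are no members, Nrg1, a neuregulin that binds ERBB3, was at 90.3 and 141 CPM (1.57, 1.48–1.65), and Nrg4 at 11 and 6.58 CPM (0.60, 0.493–0.730). Nrg1 was higher in each of the 4 tumour-line clusters, from 1.23 (1.16–1.31) in Fermt1-Epcam to 2.33 (1.58–3.58) in Zfp804b-Ralyl cells, in fibroblast-like cells with 116 and 190.0 CPM (1.64, 1.53–1.76) and in granulocyte-like cells with 112 and 162 CPM (1.45, 1.37–1.54). B-like cells moved likewise, with 58.9 and 111 CPM (1.88, 1.46–2.46), and the part of free RNA in these differences was not tested. Its highest level of all classes was in monocyte-macrophage-like cells, with 2086 and 2028 CPM (0.972, 0.961–0.983). Erbb4, the other neuregulin receptor, had 4 and 20 UMIs in tumour-like cells. It reached 356 and 543 CPM in an unnamed cluster of 7 and 26 cells led by Mmp7 and Dcdc2a.

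None of the 4 genes of ligand shedding passed 1.5-fold in tumour-like cells. Adam17, the protease that releases most of these ligands, was at 79.1 and 95.7 CPM (1.21, 1.14–1.29). Of the 13 feedback inhibitors only Lrig3 did, with 3.81 and 5.76 CPM (1.51, 1.15–2.00). Its ratio was 1.43 (1.05–1.95) in Fermt1-Epcam cells. In the other 3 tumour-line clusters the ratio was within counting error of 1, such as 0.686 (0.424–1.07) in Prg4-Grem1 cells. Errfi1, the inhibitor of EGFR kinase that the pathway itself induces, was at 678 and 635 CPM (0.936, 0.916–0.957) over tumour-like cells and at 701 and 555 CPM (0.792, 0.772–0.812) in the Fermt1-Epcam cluster. Dusp6, the phosphatase of ERK, was at 119 and 96.2 CPM (0.811, 0.768–0.856). The tumour-line clusters differed in both genes. The ratio of Dusp6 was 0.817 (0.770–0.866) in Fermt1-Epcam, 1.02 (0.687–1.51) in Ctsk-St18 and 1.21 (1.10–1.32) in Prg4-Grem1 cells. In Zfp804b-Ralyl cells it was 2.41 (1.34–4.86), and that of Errfi1 was 1.43 (1.24–1.66), with 9 cells in the first library. In the other 3 tumour-line clusters Errfi1 was below 1. None of the 10 transducers passed 1.5-fold, and none of the 10 induced transcripts did, Egr1 being at 1042 and 948 CPM and Phlda1 at 467 and 420.5 CPM.

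In the other classes few genes of the list passed 1.5-fold. In Prg4-Grem1 cells 0 of the 38 tested did, where 4.91% of all genes were higher and 3.36% lower. Of the 38 tested in monocyte-macrophage-like cells 2 were higher, where 5.97% of all genes were, and 0 lower, where 1.17% were. Nrg2 was at 7.98 and 19.2 CPM (2.41) and Nrg4 at 2.72 and 4.84 CPM (1.78). Of the 38 tested in fibroblast-like cells 1 was higher (Nrg1), where 4.55% of all genes were, and 1 lower, where 3.71% were, which was Spry4, an inhibitor of Ras signalling, with 10.7 and 7.12 CPM (0.666, 0.492–0.896). Of the 33 tested in granulocyte-like cells 2 were higher, where 19.7% of all genes were, and 1 lower, where 2.45% were. Cblb, a ubiquitin ligase that removes receptors, was at 22.0 and 61.6 CPM (2.80) and Dusp4 at 6.39 and 10.2 CPM (1.60), while Ier3, an immediate early gene, was at 3523 and 2196 CPM (0.623). Relative to the class shift of 1.19, Cblb and Ier3 were still past 1.5-fold and Dusp4 was not.

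Other genes with the class pattern of a member were sought among 15069 genes by the Pearson correlation of log2(CPM + 1) over 20 points, 10 classes in 2 libraries, which share libraries and background. Egfr was most like Fbln2 (0.985), Ror2 (0.979) and Tpm2 (0.978), and Ereg like Efemp1 (0.970), Pcolce2 (0.970) and Vasn (0.966). Erbb2 was most like Etv4 (0.954), Erbb3 like Esrp1 (0.957) and Btc like Myo5b (0.949). Hbegf was closest to Chka (0.943) and Tgfa to Lpcat4 (0.926). Areg, with its many sources, had the lowest best match, Iqgap2 (0.873).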

How the data were processed

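Cells of 1 tumour per group were captured with the 10x Chromium 3' chemistry, and samples were grouped by the titles and treatments of the labels. The deposited files hold raw UMI counts per gene and barcode, made by the authors with Cell Ranger 7.0.1 on mm10, per the submitters' processing notes. Whether intron reads were counted is not given in the sources used here, and UMI counts are not scaled to gene length, so levels were compared between classes and libraries for 1 gene and not between genes.

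The filter kept cells in which 500 genes or more were detected, with a total of 1000 to 60000 UMIs and no more than 15% of them mitochondrial. Doublets with a Scrublet score above 0.2 (scanpy 1.11.5) were then removed, 319 and 334 cells, where the study used DoubletFinder. Both libraries were clustered together on 3000 variable genes without the members and the pathway list, using the Leiden method (leidenalg 0.10.2) at resolution 1 with 20 neighbours in 30 components. This gave 29 clusters, and T and NK clusters were split again into 16 sub-clusters at resolution 1.5. No step aligned the libraries. A cluster took the name of the markers with the highest mean share of their maximum, given 3 markers in at least 10% of its cells with a CPM 3 times that of the median cluster. A name was withheld where another class had more markers among the 10 leading genes, or where UMIs were few and no own marker led. A sub-cluster needed its first marker in 20% of its cells, with no fold. T-like cells include T and NK sub-clusters that took no name. The rule named the Prg4-Grem1 cluster fibroblast, and the separate place of these cells was set after the data were seen.

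UMIs were summed per class and library and given as CPM, with Poisson intervals that are exact. Shares of cells and of UMIs have exact Clopper-Pearson intervals, and ratios have exact conditional intervals (scipy 1.17.1). The intervals cover counting error only and treat UMIs as independent. With 1 library per group nothing was tested and p-values are absent. A gene was called higher or lower at a fold of 1.5 with at least 100 UMIs over both libraries in the class, and the same rule over all genes gave the background. The scripts were tested on simulated data. The genes named are the members, the 43 pathway genes, the 3 genes most like each member and genes that lead or mark clusters. The members and lists were chosen with earlier results of these data known. Coordinates are from GENCODE vM21, and promoters from RefSeq. Processing was varied in 12 ways fixed with the design and in 5 that were added after seeing the data.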

Additional observations from a re-analysis of the deposited data

Results flagged for a closer look

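The library ratio of Ereg was 0.730 in Prg4-Grem1 cells and 1.5 in tumour-like cells, so the libraries differed in opposite directions in these 2 classes. The difference between the classes was not tested, since each has 1 library per group. The tumour-like value includes the Zfp804b-Ralyl cluster of 9 and 226 cells, and without it was 0.675.

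The library ratio of Areg was 1.47 in monocyte-macrophage-like cells and 1.49 in dendritic-like cells, against 0.761 in tumour-like cells. These differences were not tested either. The first was above 1 in all 3 monocyte-macrophage-like clusters, while the dendritic-like value ranged from 0.487 to 2.30 over the alternatives.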

How the results depend on the processing

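Of the counts in tumour-like cells, the 1 member higher became 0 under a looser cell filter (200 genes, 500 UMIs), with no upper limit of UMIs, with a mean over cells of each cell's CPM, at Leiden resolution 0.5, without tumour-like clusters with over 90% of cells in 1 library, at a fold of 2, and, among alternatives added later, with Prg4-Grem1 cells counted as tumour-like and without tumour-like cells of few UMIs. The 2 members lower became 0 under the looser cell filter, without clusters of 1 library and at a fold of 2, and 1 with no upper limit of UMIs, a mean over cells, each library clustered alone, Leiden resolution 0.5 or Prg4-Grem1 cells as tumour-like. The 2 pathway genes higher became 1 under the looser cell filter, resolution 0.5, without clusters of 1 library and with Prg4-Grem1 cells as tumour-like, and 0 with no upper limit, a mean over cells, each library clustered alone and a fold of 2. The 1 pathway gene lower became 0 under the looser cell filter, resolution 0.5, without clusters of 1 library, at a fold of 2 and with Prg4-Grem1 cells as tumour-like, and 4 with the CPM of B-like cells subtracted. The 4 ligands with most UMIs from tumour-like cells in the library labelled KPC-shV became 2 with a mean over cells. Among the counts, 77 values under an alternative stayed within 1.5 times the reported one and 31 did not.

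The ratio of Ereg in tumour-like cells turned to 0.671 under the looser cell filter, 0.456 at resolution 0.5, 0.675 without clusters of 1 library and 0.642 with Prg4-Grem1 cells as tumour-like. The ratio of Ereg in fibroblast-like cells turned to 0.853 with Prg4-Grem1 cells counted there, and that of Egfr in monocyte-macrophage-like cells to 0.904 with B-like CPM subtracted. The cause of these changes was not tested, beyond what each alternative adds or leaves out. Over all alternatives the tumour-like ratio ranged from 0.643 to 0.932 for Tgfa, 0.546 to 0.825 for Btc, 0.753 to 1.01 for Hbegf, 0.695 to 1.04 for Areg, 1.01 to 1.34 for Egfr, 0.779 to 1.11 for Erbb2 and 0.687 to 1.35 for Erbb3. In fibroblast-like cells Egfr ranged from 1.24 to 1.45. Of the tumour-like member ratios under an alternative 73 stayed within their counting interval, 43 moved and 4 turned, and of those in other classes 303 stayed, 45 moved and 2 turned. Turned is counted for ratios past 1.5-fold alone, so ratios nearer 1 that crossed it, such as those of Erbb2 and Erbb3 here and Areg in dendritic-like cells, are among those that moved or stayed. Shares of a ligand's UMIs stayed in 350 and moved in 250 cases. Shares of cells with a UMI stayed in 3 and moved in 105 cases when cells were thinned to 1000 UMIs, so these shares depend on depth.

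No paired analysis was possible because each group has 1 library, and for that reason none was left out. Depth limits Epgn, and Erbb2, Erbb3 and Btc outside tumour-like cells, where few UMIs were counted.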

Other observations

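The genes that lead the Zfp804b-Ralyl cluster, whose cells had high Ereg under the KPC-shZEB1 label, are not spread over the genome. Of its 10 leading genes, 7 lie on chromosome 5 between 3341485 and 16374511: Cdk6, Fam133b, 1700109H08Rik, Gatad1, Zfp804b, Sema3e and Cacna2d1. Ereg, Areg and Btc are on the same chromosome, but farther along. In the library labelled KPC-shZEB1, the level in this cluster over that in the Fermt1-Epcam cluster had a median of 3.45 for the 51 genes in the first 20000000 bases of chromosome 5, and 60.8% of them were over 2-fold. The median was 0.971 for all 11847 genes compared, of which 5.52% were over 2-fold. For the 75 genes within 10000000 bases of Ereg, members left out, the median was 0.818, and 2 of them were over 2-fold. The window was chosen after the leading genes were seen, so these values are a description.

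An unnamed cluster of 7 and 26 cells, led by Mmp7 and Dcdc2a, had all 8 tumour markers but was kept out of the tumour-like class because a pericyte marker, Rgs5, was among its leading genes. Its Xist was at 1582 and 1304 CPM, where the Fermt1-Epcam cluster had 35.9 and 51.9 CPM. It carried Erbb3 at 83.8 CPM (47.9–136) and 76.5 CPM (55.1–103) and Hbegf at 634 and 659.5 CPM. Ereg had 1 and 7 UMIs there. With so few cells no ratio between the libraries was read.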
